A study of Mus musculus with 6 samples.

Results

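The genes described are Ldha, Ldhb, Slc16a1, Slc16a3 and Bsg, 5 genes that make, use and move lactate in muscle. Their members in the data are all H3K27ac peaks whose annotated gene name is 1 of these 5, which gave 27 of 46988 peaks in the list of sedentary mice and 21 of 40721 peaks in the list of detrained mice. H3K27ac, acetylation of lysine 27 on histone H3, marks active promoters and enhancers, and was mapped by chromatin immunoprecipitation and sequencing (ChIP-seq) in mouse quadriceps, a large thigh muscle. Each group had 2 H3K27ac libraries and 1 input library, sheared chromatin sequenced without the antibody step.

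All mice were wild type, and the H3K27ac libraries were labelled C57BL/6 while the inputs were labelled C57BL/7 and C57BL/8. Per the study's methods they were males, placed at 8 weeks of age in single cages for 4 weeks, either without a wheel (sedentary) or with free access to one (exercised/rested in the labels, called detrained here). The runners went without a wheel for the last 72 hours, so the detrained group shows muscle after training and rest rather than muscle just after running. The labels of the sedentary libraries and their input also name 72 hours of rest. The question was therefore whether H3K27ac at these genes differed between sedentary and detrained muscle. Each table names its libraries, C2 and C3 for sedentary and Ex1 and Ex2 for detrained mice, and these names are used below.

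Lactate dehydrogenase converts pyruvate to lactate and back, and is built from the subunits encoded by Ldha and Ldhb. The Ldha subunit prevails in fast glycolytic fibers, which make lactate, and the Ldhb subunit in heart and oxidative fibers, which burn it. Slc16a1 encodes MCT1, a transporter that carries lactate and a proton and is typical of oxidative fibers, whereas Slc16a3 encodes MCT4, the transporter through which glycolytic fibers release lactate. Bsg encodes basigin, a membrane glycoprotein that both transporters need to reach the cell surface.

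Promoters of 4 of these genes are shown because each window lay inside a peak in both lists. The acetylation values below are for whole peaks, of 1776 to 14173 bp at these start sites, and not for the window alone. The windows are the 250 bases before the start site, 5′ to 3′ on the strand of the gene, from RefSeq on GRCm38.p6, which has the same coordinates as the mm10 build of the tables. RefSeq windows were matched by symbol for 4 of the 5 genes, not for Bsg. Capitals mark the core of the hypoxia response element (ACGTG), the E-box that contains it (CACGTG) and the cyclic AMP response element (TGACGTCA), on either strand.
Ldha, chr7:46845554-46845803, + strand: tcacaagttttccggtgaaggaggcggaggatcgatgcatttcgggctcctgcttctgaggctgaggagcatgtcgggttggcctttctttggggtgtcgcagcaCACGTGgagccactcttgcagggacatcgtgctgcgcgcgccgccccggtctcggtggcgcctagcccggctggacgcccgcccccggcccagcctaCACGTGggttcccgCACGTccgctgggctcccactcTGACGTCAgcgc
Ldhb, chr6:142507958-142508207, − strand: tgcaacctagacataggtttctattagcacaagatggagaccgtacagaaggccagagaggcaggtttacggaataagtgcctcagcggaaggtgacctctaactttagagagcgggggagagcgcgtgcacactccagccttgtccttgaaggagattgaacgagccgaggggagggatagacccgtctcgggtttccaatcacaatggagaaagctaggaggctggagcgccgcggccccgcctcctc
Slc16a1, chr3:104638414-104638663, + strand: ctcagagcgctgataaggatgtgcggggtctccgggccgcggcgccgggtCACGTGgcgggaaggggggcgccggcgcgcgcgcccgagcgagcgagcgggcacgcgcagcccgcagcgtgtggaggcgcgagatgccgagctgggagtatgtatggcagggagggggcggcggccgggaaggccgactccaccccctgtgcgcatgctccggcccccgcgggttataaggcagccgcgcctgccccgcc
Slc16a3, chr11:120948817-120949066, + strand: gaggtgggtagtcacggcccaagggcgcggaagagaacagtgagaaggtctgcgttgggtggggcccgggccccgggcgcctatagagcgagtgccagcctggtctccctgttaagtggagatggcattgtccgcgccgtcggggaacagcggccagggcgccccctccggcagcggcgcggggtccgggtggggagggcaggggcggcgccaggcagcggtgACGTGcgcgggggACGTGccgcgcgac

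Read on both strands, ACGTG occurred in the windows of Ldha, Slc16a1 and Slc16a3 and not in that of Ldhb, and 16.6% of all 32851 promoter windows of this length held it. The Ldha window held 2 CACGTG E-boxes, starting 145 and 48 bases before the start site, and 1 further ACGTG core on the other strand 34 bases before it. In Slc16a1 the core lay within a single CACGTG starting at base 200 before the start site, and CACGTG was found in 6.02% of all windows. Slc16a3 had 2 ACGTG cores, 27 and 14 bases before the start site, neither of them part of CACGTG. TGACGTCA was present in Ldha, starting 12 bases before the start site, and in 1.55% of all windows. RefSeq also gives a window for a second Ldha start site, chr7:46846832-46847081, inside the same peak in both lists, which had a GC content of 54.4% and held 0 matches to each motif searched.

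GGGCGG, the GC box, occurred at 2 places in Ldha and at 1 place each in Slc16a1 and Slc16a3, against 32.7% of all windows with at least 1. CCAAT was found in Ldhb, 53 bases before the start site, and in 33.8% of all windows. None of the 4 windows held CAGCTG, the E-box of myogenic factors, AAGGTCA, a nuclear receptor motif, or TATAAA, which were in 13%, 4.08% and 12.4% of all windows. GC content was 67.2% for Ldha, 76.4% for Slc16a1 and 73.6% for Slc16a3, but 56.4% for Ldhb, with a median of 52.4% over all windows. These matches describe the letters of a window and not the binding of a factor.

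Depth was 20805019 to 22400894 tags in the H3K27ac libraries, 10812470 in the sedentary input and 21298438 in the detrained input. Of 10 muscle fiber markers, 8 had a peak within 1 kb of the start site in the sedentary list and 9 in the detrained list, with densities of 47.2 to 110 and 41.3 to 133 tags per kb of peak per 10000000 tags of the library. Within this limit Tnnt3 had none in either list and Myh4 none in the sedentary list. Distances run from the centre of a peak, so a broad peak over a start site can fall outside the limit. A marker without a peak here may thus still be acetylated. Endothelial markers had peaks in 4 of 4 genes in both lists, with a median density of 39.2 (33.7 to 45.5) in the sedentary and 30.0 (28.2 to 49.6) in the detrained list. Fibroblast markers also had peaks in 4 of 4 genes in both, with medians of 46.9 (35.2 to 67.5) and 51.1 (38.0 to 70.1). Immune markers had a peak in 1 of 4 genes (sedentary) and 2 of 4 genes (detrained), adipocyte markers in 1 of 4 in both, Schwann cell markers in 0 of 4 in both and hepatocyte markers in 0 (sedentary) and 1 (detrained, Apoa2 at a density of 11.3) of 4. Their part in the results below was not tested. In whole muscle, fewer cells of a type and less acetylation per cell cannot be told apart.

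The densest peaks at the 5 genes lay at the same places in both groups. In the sedentary list Slc16a1 had 11 peaks, Ldha 5, Ldhb 5, Slc16a3 4 and Bsg 2. The detrained list held 8 for Slc16a1, 3 for Ldha, 5 for Ldhb, 3 for Slc16a3 and 2 for Bsg. A start site lay inside 1 peak of each gene in each list, which left 22 sedentary and 16 detrained peaks elsewhere. By the tables' annotation 17 of the 27 sedentary and 12 of the 21 detrained peaks were intergenic. Peaks were called once per group, so the numbers have no replicate error and were not tested.

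**Figure D1:**
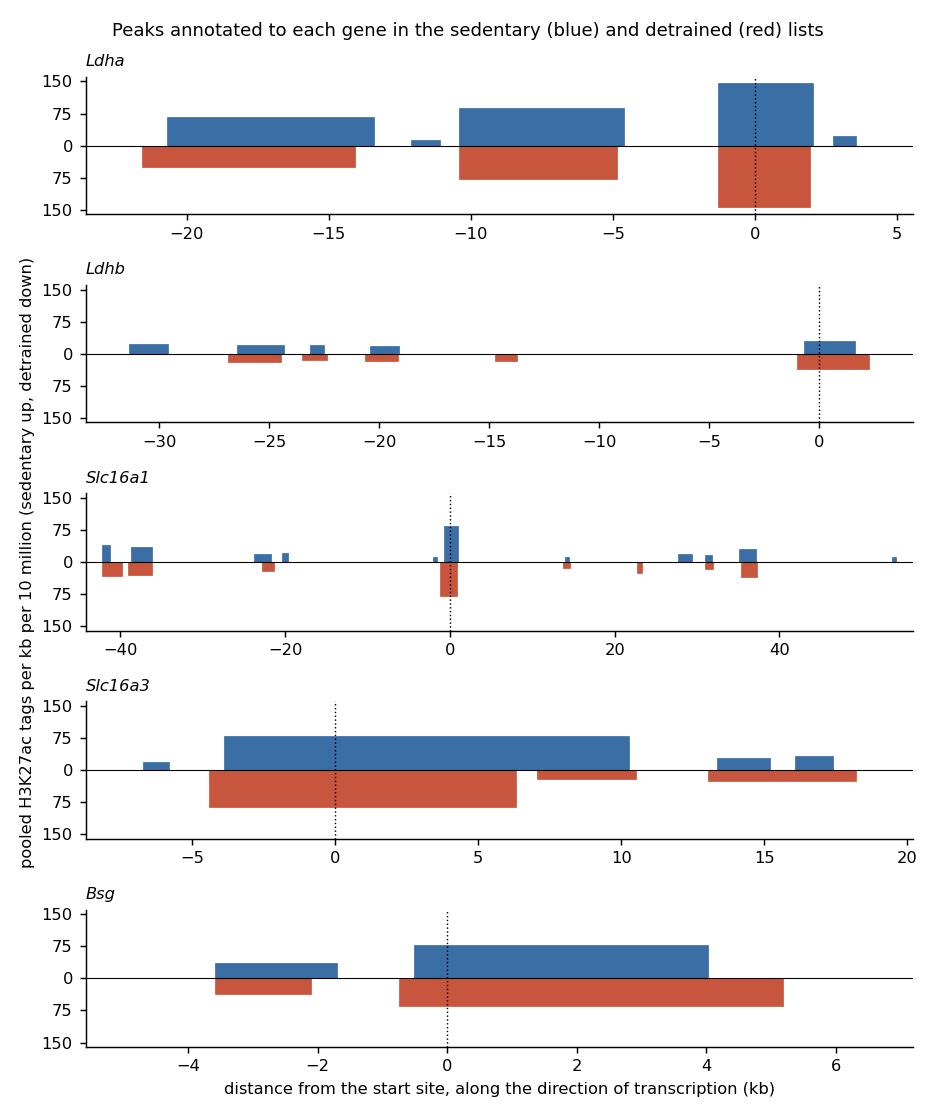
Peaks annotated to each of the 5 genes, drawn as boxes by distance from the gene's start site in kb (horizontal axis, own range for each gene) and pooled H3K27ac density in tags per kb per 10000000 tags (height), with the sedentary list upward in blue and the detrained list downward in red. Ldha and Slc16a3 carried broad, dense peaks, Ldhb a low start-site peak with low upstream peaks, and Slc16a1 many small peaks on both sides of the start site.

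Of the 27 sedentary peaks, 19 (70.4%) touched a detrained peak, with at least 1 bp in common, against 72.1% of all sedentary peaks. Of the 21 detrained peaks, 19 (90.5%) touched a sedentary one, against 82.0% of all detrained peaks. In 16 cases a sedentary and a detrained peak each covered 50% or more of the other, and such pairs are called shared peaks. They made up 59.3% of the genes' sedentary and 76.2% of their detrained peaks, where 56.3% and 64.9% of the 2 whole lists were shared.

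The 8 sedentary peaks without a detrained counterpart held 25 to 175 pooled tags each and together 3.83% of the genes' sedentary tags. Slc16a1 had 4 of them, at -20.0, -1.83, +28.6 and +54.0 kb, of which 2 had the minimum length of 500 bp and 25 tags. Ldha had 2, at -11.6 kb and in an intron 3.15 kb downstream of the start site. Ldhb had 1 at -30.5 kb, which held the most tags of the 8, 175 of the gene's 839, and Slc16a3 had 1 at -6.26 kb. The Ldhb peak, at a pooled density of 22.6, was denser than each shared upstream peak of that gene in the sedentary list (18.8 to 21.1). The tables measure the Slc16a3 peak and the Ldha intron peak from a second start site of each gene. Only 2 detrained peaks had no sedentary counterpart, Ldhb at -14.2 kb and Slc16a1 at +23 kb, with 74 tags each.

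The level of acetylation at the start sites differed widely between the 5 genes and in the same way in both groups at its ends. These densities are per length of peak, which allows genes to be compared within a list. The tags of each library were estimated from the deposited pooled tags and the deposited log2 value of each library, which is shrunken at weak peaks, so the spread between libraries there is understated. Ldha was highest, with 133 in C2 and 161 in C3, and 155 in Ex1 and 133 in Ex2. Its log2 density exceeded that of 98.9% (sedentary) and 98.8% (detrained) of the 9512 shared peaks over a start site. Ldhb was lowest, with 29.3 and 30.0 in sedentary C2 and C3 and 39.8 and 33.5 in detrained Ex1 and Ex2. It exceeded 7.40% and 14% of those peaks, so that the 2 lactate dehydrogenase genes stood near the opposite ends of the scale. Pooled over both sedentary libraries, Ldha had 147 (exact Poisson 95% interval 141 to 153) and Ldhb 29.5 (26.3 to 33.1), intervals that cover counting error only.

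Between these lay the transporters and basigin. For Slc16a1 the values were 86.3 (C2), 82.9 (C3), 84.5 (Ex1) and 73.3 (Ex2). Slc16a3 had 67.7 in C2 and 89.3 in C3, but 86.7 in Ex1 and 85.5 in Ex2. Bsg had 74.0 (C2) and 81.7 (C3) in sedentary muscle but 62.3 (Ex1) and 65.3 (Ex2) in detrained muscle. In sedentary muscle the order was Ldha, Slc16a1, Bsg, Slc16a3 and Ldhb, but the range of the Slc16a3 libraries took in all those of Slc16a1 and Bsg, so that Slc16a3 was separated from neither. In detrained muscle the order was Ldha, Slc16a3, Slc16a1, Bsg and Ldhb, and the libraries of each gene lay apart from those of the next. The change of order among the middle 3 genes rests on 2 libraries a group and on how the Slc16a3 peak was called, described below.

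**Figure D2:**
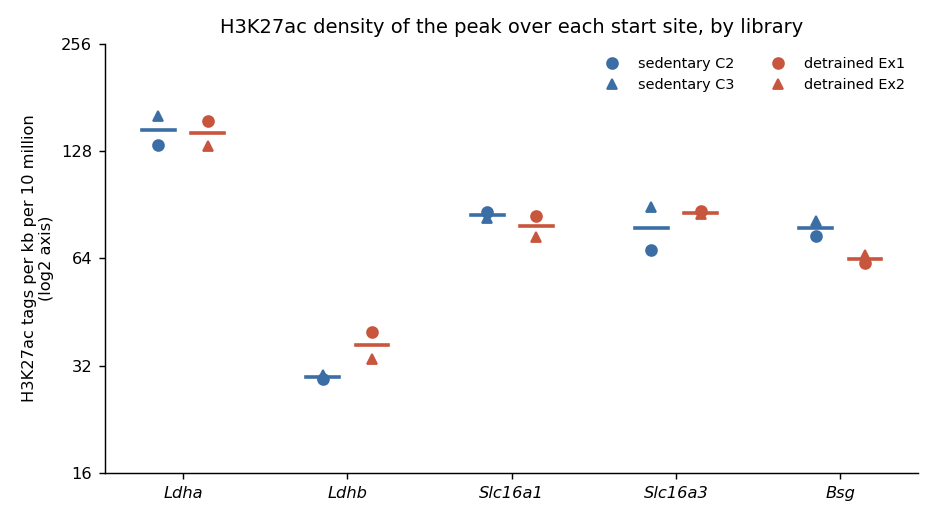
H3K27ac density of the peak over the start site of each gene in tags per kb per 10000000 tags (vertical axis, log2 scale), with 1 symbol per library and a bar at the mean log2 density of the 2 libraries of a group. Ldha lay above and Ldhb below the other 3 genes in all 4 libraries, and the groups lay apart at Ldhb and Bsg.

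Between the groups no shared peak of these genes differed 2-fold in density. Both detrained libraries lay below both sedentary libraries at 2 of the 16 shared peaks, where 27.2% of all 26432 shared peaks did, and above both at 4, where 21.3% did. At 10 of 16 the groups overlapped. On tags per peak, without regard to length, the balance turned, with both detrained libraries lower at 5 and higher at 3 of the 16, against 28.8% and 24.7% of all shared peaks. Peaks that were at least 2-fold apart without overlap made up 0.0757% of all shared peaks. The median log2 difference, detrained minus sedentary, was -0.06 over the 16 peaks and -0.03 over all shared peaks. Its sign over the 16 was not stable, as tags per peak gave 0.087, leaving out C3 gave 0.076 and leaving out C2 gave -0.19. Groups thus lay apart at 37.5% of the 16 peaks and at 48.5% of all shared peaks. No test between the groups was made, because the 2 tables were normalized separately and 2 libraries against 2 cannot give a two-sided exact permutation p under 0.333.

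Ldhb, the oxidative subunit, was higher in detrained muscle at its start site, by 0.30 on the log2 scale with a within-group SD of 0.13 (n = 2 libraries per group). The peak over its start site, chr6:142506312-142508640 in the sedentary list, reaches into the first intron. In the detrained list the peak was also longer, 3253 bp against 2328 bp, and held 119 against 68.8 pooled tags per 10000000. Without regard to length the difference was 0.78, and both detrained libraries again lay above both sedentary ones. Leaving out 1 library at a time gave 0.18 (without Ex1) to 0.42 (without Ex2). Among shared peaks over a start site 22.9% were higher in both detrained libraries.

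Ldhb also had 3 shared upstream peaks, all of them weak, with densities of 15.1 to 27.9 in sedentary and 14.4 to 20.9 in detrained libraries, and the groups overlapped at each of them. Their log2 differences were -0.11 at -19.8 kb, -0.40 at -22.8 kb and -0.09 at -25.4 kb. On tags per peak all 3 turned positive, 0.08, 0.42 and 0.11 in the same order, with the groups still overlapping. The largest of these was at a sedentary peak of 633 bp whose libraries differed by 0.89, more than the groups did. The peaks at -19.8 and -22.8 kb lie within Gm46979, a long noncoding RNA gene in RefSeq, as did the detrained peak at -14.2 kb.

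Ldha, the glycolytic subunit, had 3 strong peaks shared by both lists, and in density the groups lay apart at the farthest of them. At -17.0 kb, chr7:46825121-46832391, which lies intergenic beyond the end of Gtf2h1, C2 had 60.1 and C3 76.2, against 47.6 in Ex1 and 53.8 in Ex2. Both detrained libraries were lower, with a log2 difference of -0.42 (SD 0.19, n = 2 per group), the lowest difference of the 16 peaks. Of all shared peaks 27.2% were lower in both detrained libraries, and 6.71% had a lower difference than this one. The sedentary libraries themselves differed by 0.34 here. Tags per peak gave -0.38, also with the groups apart. At -7.51 kb C2 had 79.5, C3 97.3, Ex1 81.9 and Ex2 75.7, a difference of -0.16 (SD 0.16) with overlapping groups, while tags per peak differed by -0.22 with the groups apart. At the start site the difference was -0.03 (SD 0.18), smaller than the gap between the libraries of either group, and C3 and Ex1 were the higher libraries. It was -0.17 without C2 and 0.11 without C3.

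Summed over all its peaks Ldha held 1530 pooled tags per 10000000 in 18.3 kb in the sedentary list and 1282 in 16.3 kb in the detrained list. The mean density over this covered length was 83.7 and 78.7. Its sum ranked 444 of 14784 genes with a peak in the sedentary list and 596 of 14382 in the detrained list. C2 held 1372 and C3 1693, against 1313 in Ex1 and 1252 in Ex2. Both detrained libraries were thus lower, though C2 and Ex1 were close. The share of all genes whose sums lie apart was not counted, but groups lay apart in density at 48.5% of all shared peaks. The sedentary sum includes 2 peaks without a detrained counterpart. Over all peaks the log2 difference of the sums was -0.25, and -0.22 with only peaks that overlap the other list. Without C3 the log2 difference of the sums was -0.10 and without C2 it was -0.40.

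Slc16a1, encoding MCT1, had the most peaks of the 5 genes in both lists. At its start site the difference was -0.10 (SD 0.11), with Ex1 between C2 and C3. It was -0.21 without Ex1 and about 0 without Ex2. Tags per peak gave +0.14, with the groups apart, as the detrained peak was 2105 bp long and the sedentary one 1776 bp. In density both detrained libraries were higher at 3 of its 6 shared peaks, all away from the start site, where 21.3% of all shared peaks were. At +36.1 kb C2 had 30.1, C3 29.2, Ex1 38.7 and Ex2 31.1, a difference of 0.22. Tags per peak differed there by 0.096, with overlapping groups. At -22.8 kb the values were 19.2, 17.3, 19.6 and 22.2, a difference of 0.19. Tags per peak differed there by -0.39, with both detrained libraries lower.

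The third of these Slc16a1 peaks lies in exon 4 of 5, +14.2 kb from the start site. C2 had 12.1, C3 12.3, Ex1 13.4 and Ex2 16.6, a difference of 0.29 on densities that rest on 26 sedentary and 58 detrained tags. The peak was 500 bp long in the sedentary and 904 bp in the detrained list, and tags per peak differed by 1.15, the only 2-fold difference per peak among the 16. At -37.4 and +31.4 kb the groups overlapped, with differences of -0.17 and 0.07. A further upstream peak overlapped without being shared, 913 bp at -41.8 kb in the sedentary and 2353 bp at -41.0 kb in the detrained list. Its densities were 37.6 (C2) and 42.7 (C3) against 33.4 (Ex1) and 34.5 (Ex2), both detrained libraries lower, with a log2 difference of -0.24. Its pooled tags per 10000000 went the other way, 36.4 in the sedentary and 79.7 in the longer detrained peak. Over all its peaks Slc16a1 held 450.4 tags per 10000000 in 14.2 kb (sedentary) and 474.9 in 13.2 kb (detrained). The log2 difference of the sums was 0.08, but -0.029 with only peaks of at least 30 tags per 10000000 and 0.23 with only peaks that overlap the other list. Over all peaks it was 0.037 without C2 and 0.12 without C3.

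Slc16a3, encoding MCT4, lay under the broadest peak of the 5 genes, and the sign of its difference changed both with where that peak was cut and with 1 library. The sedentary list had a single peak of 14173 bp at chr11:120945179-120959352, rank 242 of 46988 by length, which runs over the whole gene and the end of Csnk1d on the other strand. The detrained list covered the same ground with a peak of 10731 bp over the start site and a second of 3470 bp at +8.78 kb, with densities of 86.1 and 21.3. Taken as the shared pair, the start-site peak was 0.15 higher in detrained muscle (SD 0.20), with Ex1 and Ex2 between C2 and C3. It was -0.05 without C2 and 0.35 without C3. With both detrained peaks joined into 1 region of 14201 bp, Ex1 had 70.5 and Ex2 70.0 against 67.7 and 89.3, a difference of -0.15. In density the groups overlapped either way. Tags per peak of the shared pair, whose detrained peak is the shorter, differed by -0.25 with the groups apart, and the sign at Slc16a3 was not stable.

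Farther downstream, inside Csnk1d, the sedentary list had 2 peaks at +14.3 and +16.7 kb, and the detrained list 1 peak of 5154 bp across both. Joined, they had 24.6 in C2 and 34.3 in C3, and 24.2 in Ex1 and 24.9 in Ex2. The tables assign these peaks to Slc16a3 as the nearest start site, while RefSeq places them in the body of Csnk1d. All peaks of Slc16a3 summed to 1220 tags per 10000000 in 18.3 kb (sedentary) and 1124 in 19.4 kb (detrained). C2 held 1058, C3 1388, Ex1 1125 and Ex2 1122, so the detrained libraries lay between the sedentary ones.

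Bsg, encoding the partner protein of both transporters, had the lower start-site density in detrained muscle, with a log2 difference of -0.29 (SD 0.08, n = 2 per group) that was -0.36 to -0.22 when 1 library was left out. Among shared peaks over a start site 30.2% were lower in both detrained libraries. The peak lay at chr10:79703845-79708385 in the sedentary list and was longer in the detrained list, 5935 against 4540 bp. Its pooled tags per 10000000 were 353 and 378.6, and per peak the difference was +0.10 with overlapping groups. The lower density thus came with a longer peak that held slightly more tags. The peak at -2.64 kb, which the tables place in an intron of a noncoding transcript, differed by 0.07 (SD 0.12) with overlapping groups, but by -0.27 on tags per peak with the groups apart.

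Peak length also moved the picture over all 16 shared peaks. Their median log2 length ratio was 0.17, against 0.01 for all shared peaks. From density to tags per peak, the sign of the difference changed at 8 of 16 (50% of them), and at 48.2% of all shared peaks. Groups lay apart in the same direction on both scales at 3 of 16, or 18.8%, against 16% of all shared peaks. These were Ldha at -17.0 kb, lower in detrained muscle, and Ldhb at its start site and Slc16a1 at +14.2 kb, both higher. The sedentary libraries themselves differed, with C3 above C2 at 12 of the 16 peaks and at 61.3% of all shared peaks. The group difference exceeded the gap between the libraries of both groups at 4 of 16, against 36.0% of all shared peaks.

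**Figure D3:**
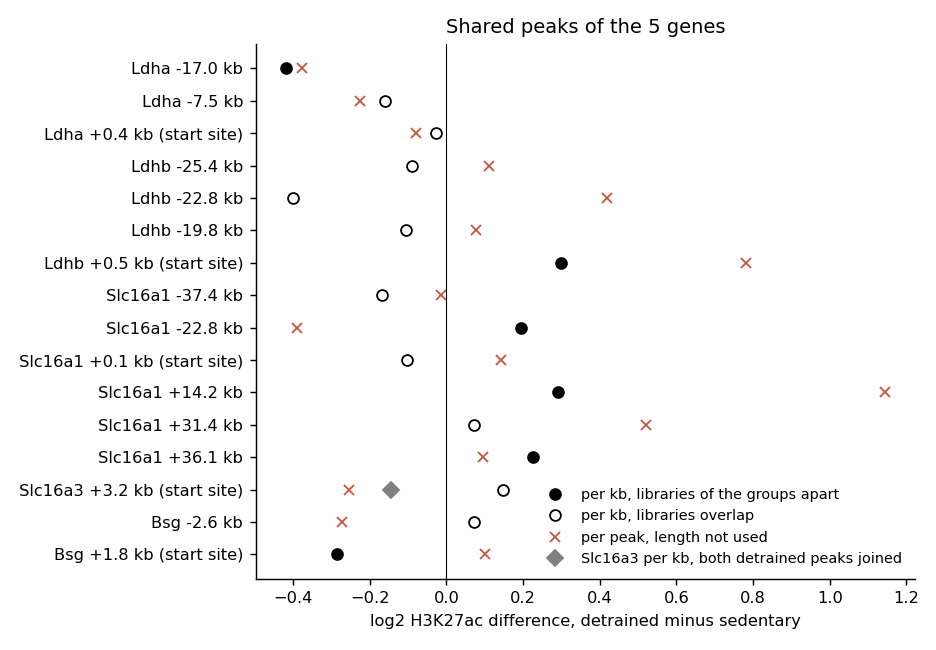
Log2 difference in H3K27ac, detrained minus sedentary (horizontal axis), at the 16 shared peaks of the 5 genes, named by gene and distance of the sedentary peak from the start site. Circles are densities per kb, filled where the libraries of the groups lay apart, crosses are tags per peak, and the diamond is Slc16a3 with both detrained peaks joined at -0.15; per kb values ran from -0.42 to 0.30.

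Other genes of lactate, pyruvate and monocarboxylate metabolism were described from a list of 34. Of these, 26 had a peak in the sedentary and 27 in the detrained list, and 6 had none in either. Among the 6 were Ldhc, the testis lactate dehydrogenase gene that follows Ldha on chromosome 7, and Hcar1, the lactate receptor gene. Of 11 other SLC16 genes on the list 6 had a sedentary and 8 a detrained peak. Start sites lay under a shared peak in 16 of the 34 genes, counted by the gene name of the sedentary peak. For Pdhx, 1 of the 16, the tables give the detrained peak of the pair to another gene, so that it counts among genes without a detrained peak.

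At these 16 start sites both detrained libraries were lower in 3 genes and higher in 3, against the 30.2% and 22.9% of all shared start-site peaks, and the groups overlapped in 10. The median log2 difference was -0.05, and -0.03 over all shared start-site peaks. Dld, the dihydrolipoamide dehydrogenase shared by several mitochondrial complexes, had the lowest difference at -0.54, with 108 and 102 in the sedentary and 74.7 and 70.1 in the detrained libraries. Its tags per peak differed by -0.05. Pdp2, a phosphatase that activates pyruvate dehydrogenase, was higher by 0.30, with 52.3 and 53.3 against 64.9 and 65.2, and per peak differed by -0.01.

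Slc16a9, a family member with a start-site density of 56.0 and 68.3 in sedentary and 70.6 and 77.2 in detrained libraries, was higher by 0.26 but differed by -0.05 per peak. Ldhd, which encodes a mitochondrial D-lactate dehydrogenase, differed by -0.25, and by -0.14 per peak. Pdhb, a subunit of pyruvate dehydrogenase, was higher by 0.15, and by 0.05 per peak. Dlat, another subunit of that complex, had 109 and 125 in the sedentary and 108 and 104 in the detrained libraries, a difference of -0.14 in density but 0.16 per peak.

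**Figure D4:**
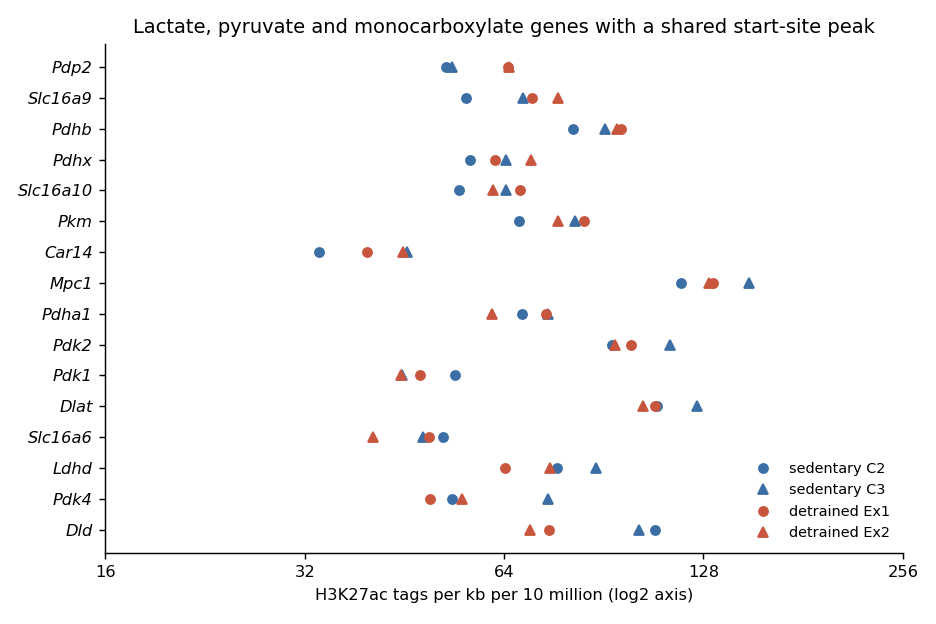
H3K27ac density at the start-site peak of the 16 listed lactate, pyruvate and monocarboxylate genes with a shared peak (horizontal axis, tags per kb per 10000000 tags, log2 scale), 1 symbol per library, ordered by the detrained minus sedentary difference. Dld, at the bottom, and Pdp2, at the top, had separated groups, while in 10 genes the groups overlapped.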

How the data were processed

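Mouse quadriceps H3K27ac ChIP-seq was analysed from 1 peak table per group (2 H3K27ac libraries and 1 input each). Reads were mapped by the authors to mm10 using Bowtie (version 1.2 in the submitters' processing notes), who kept uniquely mapped reads and 1 tag per position, and called peaks per group over both libraries against input with HOMER and DESeq2. The deposited signal of a peak is the pooled tags of both H3K27ac libraries per 10000000 total tags, from which whole tags were recovered for 100% of peaks within 0.25 tags. Each library's deposited log2 value is a regularized log, normalized within each table. The authors' log2 fold over input and adjusted p-value served only as a filter in 1 alternative.

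Library tags were estimated by sharing the pooled tags in proportion to each library's total times its unlogged value. Density was (tags + 0.5) per kb of peak per 10000000 tags. Columns C2 and C3 do not match the numbers in the labels and were assigned to the sedentary group only. Shared peaks were pairs, 1 from each list, that each covered 50% or more of the other, one to one. SD is the within-group SD of log2 values, pooled over both groups. Single mice per library were stated in the methods, so spread between libraries includes that between animals. Motifs were searched on both strands of RefSeq promoter windows. Named beside the 5 genes were listed pathway genes with separated groups (at most 6, by size of difference) and, per gene, the 2 genes nearest in density. The pathway list holds 1 further gene beside the 34 counted, which is not reported here. The genes, lists and motifs were chosen with earlier results of these data known. Scripts were tested on simulated data in which both lists had the same peak lengths and library values were not shrunken. Effects of peak length and of shrinkage were therefore not simulated. Software was Python 3.11.15, numpy 2.4.6, pandas 2.3.3 and scipy 1.17.1. Alternatives covered peak length, overlap, pseudocount, scaling, centring, input subtraction, peak filters and leaving out each library.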

Additional observations from a re-analysis of the deposited data

How the results depend on the processing

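The median difference over the shared peaks and the start-site differences moved by less than the SD between libraries under larger pseudocounts (5 tags), input subtraction, centring, scaling to the tags in listed peaks and other overlap rules. At least 80% coverage left 7 shared peaks, among start sites that of Ldha alone, and any one-to-one overlap left out that of Slc16a3. Tags per peak gave a median of 0.087 and start-site differences of 0.78 (Ldhb), 0.14 (Slc16a1) and -0.25 (Slc16a3), and turned Bsg to 0.10. Joining overlapping peaks, added after seeing the data, gave -0.15 at Slc16a3. Leaving out each library gave medians of -0.19 (without C2) to 0.076 (without C3). No paired analysis was possible because the sedentary columns carry numbers that do not match the labels and no test between groups was made. The labels number the replicates alike in both groups, but the methods describe no pairing of mice. Per the methods, mice were assigned to cages at random, so columns matched to the labels would still not have given pairs.

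Peaks with at least 30 pooled tags per 10000000 numbered 17 (sedentary) and 14 (detrained), those at least 4-fold over input with an adjusted p-value under 0.001 numbered 13 and 13, and those within 10 kb of a start site 10 and 8. The 30-tag limit gave log2 differences of summed tags of 0.12 (Ldhb, which was 0.25 over all peaks) and -0.029 (Slc16a1, which was 0.08), and using only peaks that overlap the other list gave 0.48 (Ldhb) and 0.23 (Slc16a1).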

Other observations

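For each of the 5 genes, the genes with the most similar start-site acetylation were sought among 9261 genes by Euclidean distance over the log2 densities of the 4 libraries. Nearest to Ldha were Kif11 (distance 0.08) and Gtf2a1 (0.10), nearest to Ldhb were Ids (0.09) and Ston1 (0.10), and nearest to Slc16a1 were Furin (0.02) and Pum2 (0.04). Mrps23 (0.08) and Tatdn1 (0.08) were nearest to Slc16a3, and 4833417C18Rik (0.04) and Slc43a1 (0.05) to Bsg. Slc43a1 had densities of 72.3 and 82.0 in sedentary and 63.6 and 64.8 in detrained libraries, beside 74.0 and 81.7, and 62.3 and 65.3, for Bsg. With 4 libraries such likeness is a description of level and of the libraries, and says nothing of shared function.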
